A study of Homo sapiens with 58 samples.

Results

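HuR (ELAVL1) is an RNA-binding protein that shuttles between nucleus and cytoplasm and binds U-rich and AU-rich stretches, mostly in 3'UTRs and introns. The peaks described here are the HuR crosslinking and immunoprecipitation (CLIP) peaks that the deposited annotation places within 10 kb downstream of a gene, outside the annotated transcript. They were chosen by that annotation class alone, after repeated lines were dropped, and number 7577 of 387214 peaks (1.96%). RNA polymerase runs on past the poly(A) site before it terminates, and stress is known to let some transcripts run much further (readthrough transcripts, which are held in the nucleus). A peak in this class can also lie in a 3' end that the annotation does not hold, and which peaks are of which kind was not tested.

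The libraries come from Huh-7.5 cells, a hepatocellular carcinoma line, left unstressed (mock) or exposed to sodium arsenite, an oxidative stressor that induces stress granules, at 0.5 mM over 45 min. In wild-type cells without the APEX reaction, nuclear and cytoplasmic fractions were taken, with 3 libraries for each fraction and treatment. In 3 lines carrying the peroxidase APEX as APEX-NLS (nuclear), APEX-NES (cytoplasmic) or APEX-G3BP1 (fused to a stress granule protein), cells received biotin phenol and hydrogen peroxide with or without arsenite. HuR-bound RNA was then sequenced without streptavidin capture (input) or after it (enriched), giving 58 libraries in 16 groups. The labels do not say which libraries came from separate cultures, so p-values measure the spread between these libraries, which may be technical.

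The libraries held 4662 to 2622677 tags, the 12 fraction libraries all came from 1 library set (JL0380), and 16 libraries held fewer than 10000 tags in peaks. In both fractions every arsenite library was deeper than every mock library. Nuclear libraries held 686263 to 1099896 tags in mock and 1154335 to 1250151 in arsenite. Cytoplasmic libraries held 940147 to 981792 and 1385165 to 1759090. Treatment and depth thus go together in the fractions, and the part of depth was not tested. In 5 pairs of enriched libraries, all of set JL0388, the libraries could not be told apart from repeat sampling of 1 library (permutation p between 0.062 and 0.794), so each such pair counts as 1 sample where its values are given side by side. Of 9 hepatocyte markers 7 had tags, their summed level lay between 55.9 and 2871 tags per 1000000 library tags (counts per 1000000, CPM) over the 58 libraries, and the 3 fibroblast markers had none. APOA1 and TTR were the markers without tags, and the 2 blood markers together had 66 tags.

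The downstream peaks held 123567 of the 7887093 tags in peaks (1.57%). Each is 20 nt long and holds between 4 and 1382 tags over all libraries, with a median of 9, against a median of 10 over all peaks, and 4279 held 10 or fewer. The deposited table names a gene for 61 of them, so hosts were assigned from RefSeq (GRCh38.p14) as the nearest protein-coding gene end upstream on the same strand. By this, 6716 peaks (88.6%) lay within 10 kb of a gene end, with a median distance of 3539.5 nt and quartiles of 1399 and 6237 nt. Another 538 lay inside a RefSeq protein-coding gene, and 323 in neither position, where the RefSeq models and the authors' annotation differ. A gene on the other strand overlapped 1562 peaks (20.6%), 162 overlapped a pseudogene and 7 a small RNA gene, and reads of such genes were not separated here.

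The 7253 peaks with a host belonged to 3114 genes. A single peak was held by 1680 of these genes, while 63 genes held 10 or more each, 814 peaks in all. Zinc finger genes named ZNF made up 3.53% of host genes and 2.58% of RefSeq protein-coding genes, and 9 of the 63 genes with 10 or more peaks. At the edge of the class, the 390 peaks at 9000 to 10000 nt held a median of 8 tags, as did the 362 unannotated peaks at 10000 to 11000 nt past a gene end.

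The sequence of 12 downstream peaks could be read, since they fall wholly within a RefSeq promoter window of the following gene on the same strand. The 5 of these with the highest mean CPM over the fraction libraries are shown as examples of the sites, not because their level changed. Letters are read 5' to 3' on the peak's strand with the table's starts counted from 0, which the table does not state, and capitals mark runs of TTT or longer. The sequences are RefSeq's (GRCh38.p14).
RPE peak, chr2:210029771-210029791, plus strand: aTTTTagagttcaacatatg
Peak without a host in the GLMP window, chr1:156295760-156295780, minus strand: tacattaaatggtgctgacg
LARS1 peak, chr5:146105744-146105764, minus strand: TTTTaTTTTTaaatgaaaaa
FAM217B peak, chr20:59958233-59958253, plus strand: TTTgTTTggttcaagaggat
KRTAP20-2 peak, chr21:30642627-30642647, plus strand: aaagtctatcagctgTTTgg
Of the 12, 9 hold TTT or longer on the peak's strand and 3 hold none, while 19.997% of the 20 nt windows that tile all 35116 promoter windows hold it. Their median T content is 35%, against 21.3% over all promoter windows. The RPE peak lies 7511 nt and the KRTAP20-2 peak 7008 nt past the gene end. A match is a description of these letters and shows no binding site.

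The downstream peaks took a larger share of peak tags after arsenite in both fractions. In the nucleus the share was 1.29%, 1.26% and 1.22% in the mock libraries and 1.83%, 1.75% and 1.75% in the arsenite libraries. In the cytoplasm it was 1.48%, 1.53% and 1.47% in mock and 1.85%, 1.72% and 1.77% in arsenite. Neither pair of groups overlapped, and the mock fractions stood apart from each other while the arsenite fractions overlapped. As summed levels, the nucleus went from 4285 ± 128 CPM (SD, n = 3) to 6322 ± 102 CPM and the cytoplasm from 5617 ± 175 to 6599 ± 55.5 CPM. These sums cover every member and carry no test. The ratio of arsenite over mock was 1.48 in the nucleus and 1.17 in the cytoplasm. Without the 10 host genes with most tags it was 1.41 and 1.27. Over the 4279 peaks with 10 or fewer tags the order of the fractions was the other way, with 1.38 in the nucleus and 1.57 in the cytoplasm. Fewer bound molecules and fewer tags per molecule cannot be told apart in such libraries.

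Other classes moved as well, and not in the same way. In the nucleus 3'UTR peaks together went from 40079 ± 1912 to 68293 ± 3615 CPM, a ratio of 1.70, and intron peaks had a ratio of 0.913. In the cytoplasm 3'UTR peaks had a ratio of 0.571, from 159354 ± 20823 to 91033 ± 5213 CPM, while intron peaks had a ratio of 1.42. Peaks outside any annotation had ratios of 1.07 and 1.06, but those of them at 10000 to 11000 nt past a gene end had 1.60 and 1.21, beside 1.78 and 1.59 for the downstream peaks at 9000 to 10000 nt. The downstream peaks thus lay between 3'UTR and intron peaks in both fractions.

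**Figure D1:**
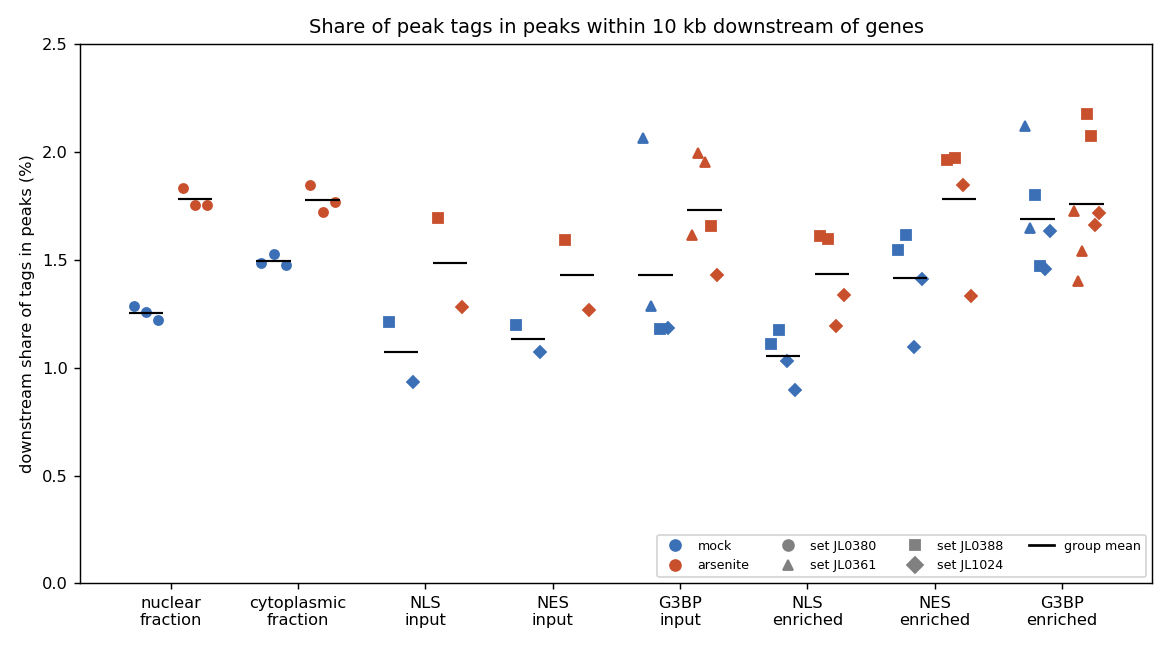
Share of the tags in peaks that fall in downstream peaks (%, vertical axis) in each of the 58 libraries; symbols give the library set, colours the treatment and bars the group mean. In the nuclear fraction the mock libraries lie between 1.22% and 1.29% and the arsenite libraries between 1.75% and 1.83%, while the G3BP enriched groups overlap.

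The same direction was found in most of the APEX libraries when line, capture and library set were held together. Of 16 such pairings, the fractions included, the mean share was higher with arsenite in 15, and in 13 no arsenite library overlapped a mock library. With near-identical libraries counted once, 8 of the pairings hold 1 sample on each side, where no overlap is possible. In the APEX-NLS input libraries of set JL0388 the share was 1.21% in mock and 1.69% in arsenite. The enriched NLS libraries of that set held 1.11% and 1.17% in mock and 1.61% and 1.60% in arsenite. Among the NES enriched libraries of set JL1024, the mock values 1.10% and 1.41% overlapped the arsenite values 1.85% and 1.33%. The exception in direction was the G3BP enriched set JL0361, at 2.12% and 1.65% in mock and 1.73%, 1.40% and 1.54% in arsenite. Per library total the direction of this set turned, from a mean of 1401 CPM in mock to 1477 in arsenite, with overlapping values, and the mean CPM was higher with arsenite in all 16 pairings. Its shallowest mock library held 519 tags in peaks, with a Wilson 95% interval of 1.19% to 3.75%, which covers counting error alone. Pairings counted as higher could be as thin. In the G3BP inputs of set JL1024 the mock interval was 0.729% to 1.91%, from 16 downstream tags, and the arsenite interval 1.28% to 1.59%. In the NES inputs of that set the intervals were 0.895% to 1.28% and 1.08% to 1.49%. The 3'UTR share was also higher with arsenite in 15 of the 16 pairings.

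By distance from the gene end the fractions differed in level and in ratio. In the nucleus each distance range was higher with arsenite in all 3 libraries than in any mock library, with ratios of 1.36 at 0 to 1 kb, 1.45 at 1 to 2.5 kb, 1.53 at 2.5 to 5 kb and 1.56 at 5 to 10 kb. In the cytoplasm the first kilobase went from 1313 ± 97.0 to 1211 ± 41.8 CPM (n = 3) and its groups overlapped. At 1 to 2.5 and 2.5 to 5 kb the ratios were 1.19 and 1.13, without overlap. The range of 5 to 10 kb went from 1232 ± 35 to 1812 ± 51.8 CPM, a ratio of 1.47, without overlap. In mock cells the nucleus held 0.673, 0.768, 0.692 and 0.917 times the cytoplasmic level in the ranges from near to far, and with arsenite 0.993, 0.937, 0.934 and 0.973 times. No test was made of these sums, because a score over chosen members carries none.

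**Figure D2:**
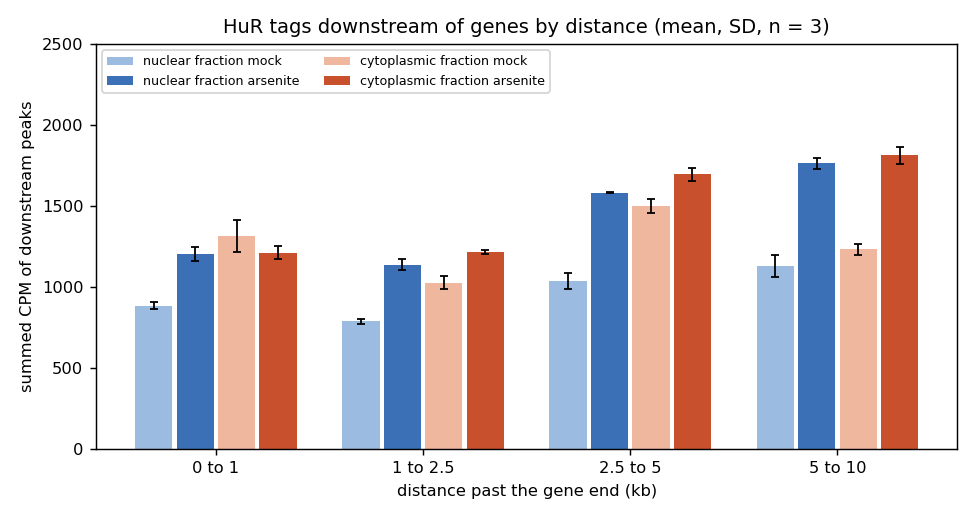
Summed CPM of downstream peaks (vertical axis, from 0) by distance past the RefSeq gene end (kb, horizontal axis) in the 4 fraction groups; bars are means and whiskers SD over 3 libraries. At 5 to 10 kb both arsenite groups (1763 and 1812 CPM) lie above both mock groups (1130 and 1232 CPM), while within 1 kb the cytoplasmic groups overlap.

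At single peaks of 20 nt the tests were run with limma on log2(CPM + 2.28) over all peaks, with Benjamini-Hochberg adjustment over all of them and a call at 0.05. A peak entered a test when it had tags in at least 3 of the 6 libraries compared, so that a peak with tags in 1 group had to differ. Log2 differences on this scale understate the change of low peaks.

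The 10 highest downstream peaks by mean CPM over the fraction libraries lie at ONECUT1, ANKRA2, MAPRE1, POTEG, ALYREF, PSME4, ZNF460, PCNT, HAVCR1 and MAP4K4, counting each gene once. Together the 10 highest peaks of the class held 5.60% and the 100 highest 17.6% of its tags in the fractions. The highest lies 3175 nt past the end of ONECUT1, a transcription factor of hepatocytes, at chr15:52751858-52751878 on the minus strand. It stood at 42.3, 36.4 and 35.7 CPM in nuclear mock, 60.9, 58.4 and 55.4 in nuclear arsenite, 121, 152 and 147 in cytoplasmic mock and 57.8, 60.3 and 59.1 in cytoplasmic arsenite. The cytoplasmic mock libraries were the highest, and the arsenite libraries of both fractions met at the same level. The cytoplasmic fall was 1.21 on the log2 scale (SE 0.17, limma adjusted p = 0.0143), and the nuclear difference of 0.59 did not pass (limma adjusted p = 0.21).

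ANKRA2, which encodes an ankyrin repeat protein, has its main peak 3256 nt past the end at chr5:73548914-73548934, minus strand. It had 197, 184 and 142 CPM in cytoplasmic mock and 59.2, 58 and 34.8 in cytoplasmic arsenite, without overlap. In the nucleus the values were 24.8, 38.2 and 27 in mock and 40.0, 40.8 and 36.4 in arsenite. It fell by 1.76 on the log2 scale in the cytoplasm (SE 0.23, limma adjusted p = 0.0109), while the nuclear difference of 0.38 did not pass (limma adjusted p = 0.641).

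ALYREF, an adaptor of mRNA export, went the other way in the nucleus. Its peak 4642 nt past the end, chr17:81883173-81883193, minus strand, had 4.37, 8.18 and 5.79 CPM in nuclear mock and 66.5, 51.2 and 46.8 in nuclear arsenite. In the cytoplasm it had 11.7, 13.2 and 7.38 in mock and 26.0, 14.8 and 32.7 in arsenite. All arsenite libraries lay above the mock libraries of their fraction. The nuclear rise was 2.77 on the log2 scale (SE 0.26, limma adjusted p = 0.001), or 8.96-fold between the means, and the cytoplasmic difference of 1.00 did not pass (limma adjusted p = 0.102).

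**Figure D3:**
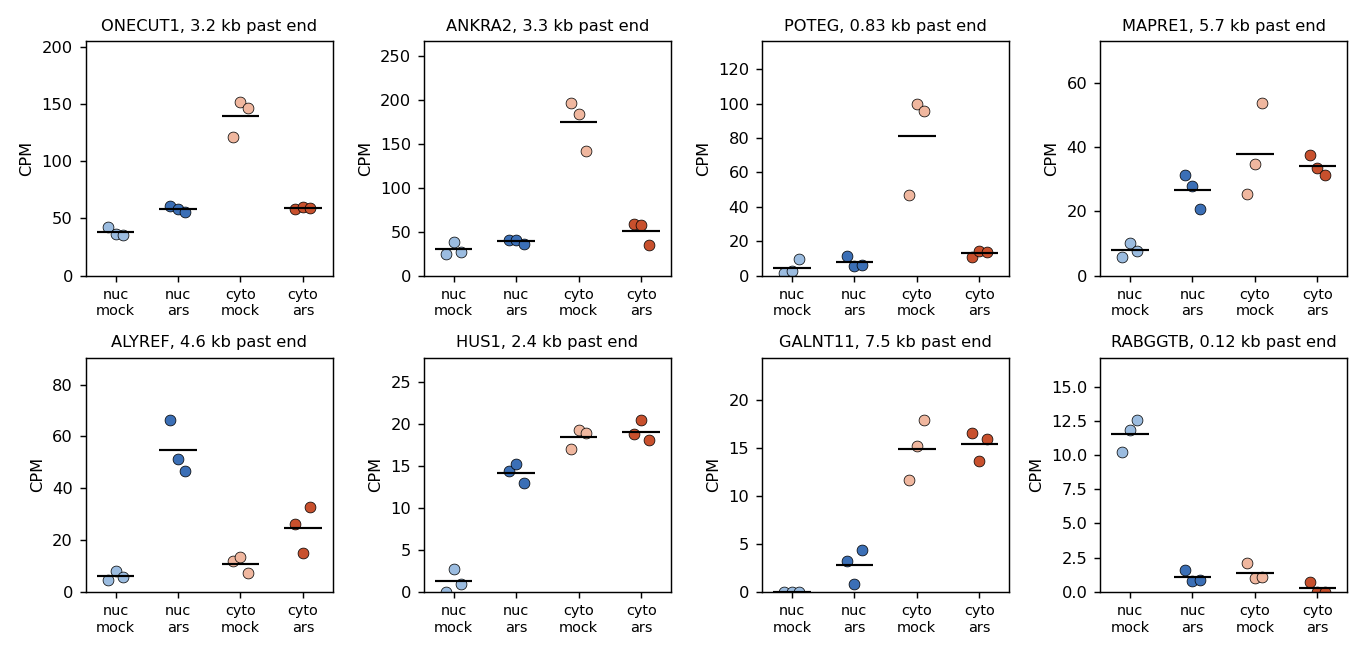
CPM (vertical axis, from 0, scaled per panel) of 8 downstream peaks in each fraction library; points are libraries and bars group means (nuc, nuclear; cyto, cytoplasmic; ars, arsenite). ONECUT1, ANKRA2 and POTEG are highest in cytoplasmic mock, ALYREF in nuclear arsenite, and RABGGTB in nuclear mock.

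Of the 7577 downstream peaks 3471 passed this filter in the nuclear test. Of these, 10 were called between arsenite and mock (limma, 0.288%), 8 higher and 2 lower, against 0.186% of all peaks tested, 0.152% higher and 0.034% lower. The 8 peaks that rose belong to 6 host genes: ALYREF, GNA12, a G protein subunit, STT3B, a catalytic subunit of oligosaccharyltransferase, HUS1, a checkpoint clamp subunit, CRB3, a polarity protein, and ZNF624, whose peak lies inside the RefSeq gene. edgeR called 18 downstream peaks, against 0.377% of all peaks. The STT3B peak, 29 nt past the gene end, had 0, 0.909 and 0 CPM in mock and 9.61, 11.2 and 10.4 in arsenite, at least 3.12-fold higher when the mock level is set to 3 tags per library. The HUS1 peak, which also lies inside PKD1L1, had 0, 2.73 and 0.966 CPM in mock and 14.4, 15.2 and 13 in arsenite, at least 4.26-fold higher. The 2 that fell lie past RABGGTB and IDH3B. The RABGGTB peak, 122 nt past the end, had 10.2, 11.8 and 12.6 CPM in mock and 1.60, 0.800 and 0.866 in arsenite, at least 4.67-fold lower.

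This count rests on single libraries. It was 285 without nuclear arsenite replicate 3, 282 of them higher, which is 6.21% of the downstream peaks tested beside 3.37% of all peaks, and 0 without nuclear mock replicate 1 or nuclear arsenite replicate 1 or 2, and 1 without either other mock library. The median log2 difference of the downstream peaks tested was 0.13 and that of all peaks 0.01, with 3'UTR peaks at 0.23 and intron peaks at -0.03.

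In the cytoplasm 16 of 3764 downstream peaks were called (limma, 0.425%), 8 higher and 8 lower, against 0.76% of all peaks, 0.24% higher and 0.52% lower. edgeR called 33, against 1.44% of all peaks. The 8 that rose include peaks past LUC7L, a splicing factor, AGFG1, NUCKS1, PHLDA1 and TPTE, and 1 inside the RefSeq gene OXNAD1, over RFTN1 on the other strand. The LUC7L peak, 9313 nt past the end, had no tag in the mock libraries and 11.6, 7.39 and 10.4 CPM in arsenite, at least 3.12-fold higher. The 8 that fell lie, beside ANKRA2 and ONECUT1, past GLUD2, POTEG, PSPH, the last enzyme of serine synthesis, HSD17B12 and SLC49A4. The POTEG peak had 46.8, 99.8 and 96.0 CPM in mock and 10.8, 14.2 and 13.9 in arsenite, a fall of 2.38 on the log2 scale (SE 0.30, limma adjusted p = 0.00910). POTEG, GLUD2, PSPH and TPTE have near-identical copies elsewhere in the genome, and how reads of several copies were counted is not given in the sources used here.

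Of the 8 peaks that fell, 5 lay within 1000 nt of the gene end and none beyond 5000 nt. Of the 3347 placed peaks tested, 709 lay within 1000 nt and 1031 beyond 5000 nt. Of the 8 peaks that rose, 5 had no tag in any cytoplasmic mock library, among them the 4 that lay beyond 5000 nt. Such peaks passed the filter through the arsenite libraries alone and could only be higher there, so their distances are not set against those of the falls. The balance of directions depended on the setting and on single libraries. A pseudocount 4 times smaller called 109 downstream peaks higher and 16 lower, beside 5162 and 1600 of all peaks, and 1 fit of all 12 fraction libraries called 77 and 42, beside 2939 and 3036 of all peaks. Without cytoplasmic arsenite replicate 1, 2 or 3 the counts were 330, 364 and 288 higher and 15, 15 and 11 lower. These are 7.07%, 8.19% and 6.21% of the downstream peaks tested, where 6.17%, 7.16% and 5.97% of all peaks were called. Without cytoplasmic mock replicate 1, 2 or 3 they were 3, 0 and 0 in both directions together. The median log2 difference was 0.10 over the downstream peaks tested and 0.08 over all peaks.

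Between fractions of mock cells 50 of 2472 downstream peaks were called (limma, 2.02%), against 2.82% of all peaks, with 6 higher in the nucleus and 44 lower, where 0.53% and 2.29% of all peaks were. edgeR called 49, against 2.8% of all peaks. The 44 lay at 36 host genes. Of the 44, 9 had no tag in any nuclear mock library, and of the 6, 2 had none in any cytoplasmic mock library. Such peaks passed the filter through 1 fraction alone and could only be higher there. The peak past GALNT11, 7514 nt from its end, had no tag in nuclear mock and 11.7, 15.3 and 17.9 CPM in cytoplasmic mock, at least 4.49-fold higher. At the pseudocount of 2.28 CPM the largest log2 difference was that of the POTEG peak, a rank that depends on the pseudocount. It had 1.46, 2.73 and 9.66 CPM in the nucleus beside the cytoplasmic mock values above, 17.5-fold between the means (limma adjusted p = 0.00258). The PCNT peak, past the gene of the centrosomal protein pericentrin, had 1.46, 5.46 and 3.86 CPM in the nucleus and 22.3, 30.6 and 53.8 in the cytoplasm, 9.90-fold between the means. The peaks past HUS1, GLUD2 and AGMAT were at least 5.54-fold, 7.92-fold and 6.06-fold higher in the cytoplasm, each with no overlap. Higher in the nucleus were RABGGTB, PACS1, AMD1, KIAA1586, FANCB and the peak past ARHGEF39, which overlaps the small RNA gene RMRP, an RNA of the nucleolar RNase MRP. The RMRP peak had 24.8, 15.5 and 14.5 CPM in the nucleus and 2.13, 4.07 and 5.27 in the cytoplasm. Without nuclear mock replicate 1 the larger direction turned, with 165 higher in the nucleus and 42 lower (5.48%), as it did over all peaks, with 13503 higher and 3117 lower (7.46%). Without any other library between 0 and 5 downstream peaks were called, all lower.

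With arsenite, 8 of 4854 downstream peaks were called between fractions (limma, 0.165%), against 0.257% of all peaks, 0.11% higher and 0.147% lower. The peak over RMRP was higher in the nucleus, and those past GOLGA8A, NHSL2, GALNT11, HEATR3, EVI5 and TPTE and 1 more were lower. edgeR called 20, against 0.655% of all peaks. The HEATR3 peak, 6700 nt past the end, had 4, 4.8 and 5.2 CPM in the nucleus and 15.9, 19.9 and 21.6 in the cytoplasm. No downstream peak was called when any of the 6 libraries was left out.

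The arsenite response differed between the fractions at 14 of 6532 downstream peaks (limma interaction over the 12 libraries, 0.214%), against 0.352% of all peaks, 0.318% more positive in the nucleus and 0.0344% less, and the response was more positive in the nucleus at all 14. They lie past ANKRA2, ONECUT1 (2 peaks), ZNF460 (2 peaks), POTEG, CRB3, GLUD2, HUS1, PPIL4, MAPRE1, PCNT, ALYREF and URB2, none beyond 5000 nt. edgeR called 14 as well, against 0.345% of all peaks. For the main ANKRA2 peak the difference of differences was 2.14 (SE 0.26, limma adjusted p = 5.9e-10), and for the main ONECUT1 peak 1.79 (SE 0.23, limma adjusted p = 2.59e-09). The count was between 2 and 13 when 1 library was left out, with 2 without nuclear arsenite replicate 3, 13 without cytoplasmic mock replicate 1, and 3 to 8 otherwise.

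In the APEX lines few downstream peaks had enough tags. Of 203 tested between arsenite and mock input libraries, with line and set in the model, limma called 0, against 0.0% of all peaks. At an unadjusted p under 0.05 there were 22, and edgeR called 7, 6 higher and 1 lower, against 2.76% of all peaks. Of 15 tested in G3BP enriched libraries limma called 0 (0.0% of all peaks, 1 at unadjusted p under 0.05, 1 by edgeR, against 3.12% of all peaks). Of 8 tested between NLS and NES enriched mock libraries limma and edgeR called 0 (0.0% of all peaks by limma and 0.108% by edgeR), with 0 at unadjusted p under 0.05 by limma. The main ONECUT1 peak had tags in 6 of 7 G3BP enriched arsenite libraries, with a lowest of 0, a median of 49.6 and a highest of 321 CPM, and in 4 of 6 mock libraries, with a lowest of 0, a median of 17 and a highest of 214.5 CPM. The groups overlapped. In NLS enriched arsenite libraries it had 2 tags in all. The main ALYREF peak had 0 tags in the NLS and NES libraries, input and enriched, and between 0 and 7 tags in each G3BP group.

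Summing the downstream peaks of a gene gave values with more tags. Under the same limma test over all sums of a gene and annotation class, 47 of 1891 downstream sums were called in the nucleus (2.49%), 40 higher and 7 lower, against 5.53% of all sums, 4.09% higher and 1.44% lower (edgeR 43, against 6.01%). In the cytoplasm 143 of 1942 were called (7.36%), 113 higher and 30 lower, against 12.5% of all sums, 6.4% higher and 6.08% lower (edgeR 133, against 13.8%). The median log2 difference of downstream sums was 0.19 in each fraction, and that of 3'UTR sums 0.39 in the nucleus and -0.30 in the cytoplasm.

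ALYREF, with 12 downstream peaks between 486 and 6680 nt, had the largest nuclear rise in log2 of its sum at the pseudocount of 2.28 CPM. The rank among low sums depends on that pseudocount. The ALYREF sum went from between 19.3 and 26.2 CPM in mock to between 118 and 131 in arsenite (log2 difference 2.40, SE 0.15, limma adjusted p = 1.05e-06). Its 3'UTR peaks had 35 ± 4.22 and 78.0 ± 10.8 CPM in the same libraries (n = 3). In the nuclear arsenite libraries the downstream sum was therefore above the 3'UTR sum, and in the mock libraries below it. MAPRE1, a microtubule plus-end protein, held 15 peaks up to 5853 nt and went from 16.9 ± 1.81 to 55.2 ± 2.11 CPM (log2 difference 1.59, SE 0.17, limma adjusted p = 6.25e-05), with 3'UTR sums of 3.00 and 6.02 CPM. ONECUT1 held 14 peaks up to 4953 nt. Its sum went from 80.4 ± 2.26 to 140 ± 7.96 CPM in the nucleus and from 282 ± 25.2 to 165 ± 7.20 CPM in the cytoplasm, called in both (limma adjusted p = 0.000633 and 0.00226). Its 3'UTR sums were 9.52, 17.8, 64.7 and 29.0 CPM in nuclear mock, nuclear arsenite, cytoplasmic mock and cytoplasmic arsenite, below the downstream sum in each group. Other sums that rose in the nucleus were those of CRB3, MAP2K2, GNA12 and PPIL4, and those that fell include RABGGTB, IDH3B, BAMBI, XKR7 and the histone gene H2AC14. The XKR7 peak overlaps the 5S rRNA pseudogene RNA5SP481.

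**Figure D4:**
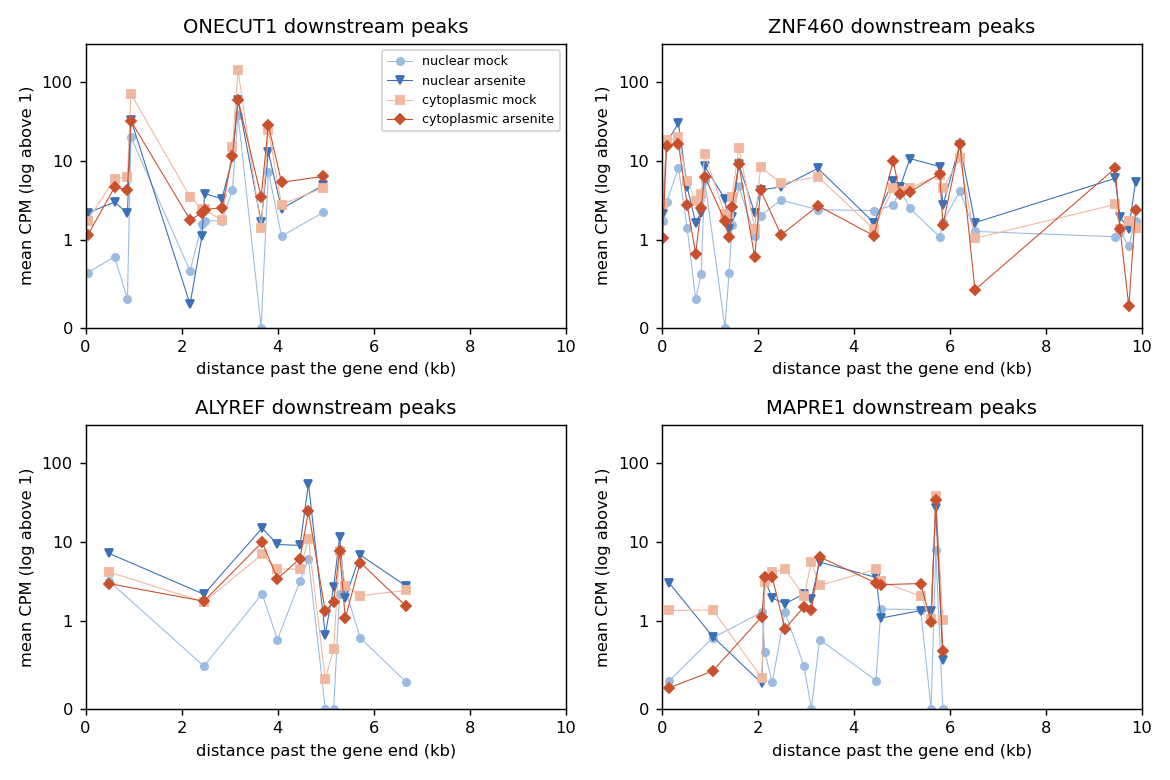
Mean CPM (vertical axis, linear to 1 and log above) of each downstream peak of 4 genes against its distance past the gene end (kb, horizontal axis); symbols and colours give the 4 fraction groups (n = 3) and lines only join peaks of a group. The main ALYREF peak at 4642 nt is highest in nuclear arsenite, while the main ONECUT1 peak at 3175 nt is highest in cytoplasmic mock.

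The genes with most downstream peaks were ZNF460 with 27, THOC5, a subunit of the THO export complex, with 20, ZNF644 with 18, PDCD10, STT3B, XRCC5 and ZNF724 with 17 each, and BAG4, GDAP2 and HSD17B12 with 16 each. The ZNF460 sum, spread from 18 to 9865 nt past the end, went from 61.6 ± 7.65 to 167 ± 14.9 CPM in the nucleus (log2 difference 1.41, SE 0.13, limma adjusted p = 1.35e-05) and from 154 ± 25.2 to 125 ± 10.2 CPM in the cytoplasm, which did not pass (limma adjusted p = 0.267). THOC5, XRCC5, ZNF724 and STT3B also rose in the nucleus, with log2 differences of 0.90, 1.08, 0.95 and 1.03. In the cytoplasm STT3B and ZNF644 rose, by 1.29 and 1.63, and ZNF724 and HSD17B12 fell by 0.73 and 1.00. THOC5 had 54.7 ± 15.0 CPM downstream and 0.556 ± 0.482 CPM in 3'UTR peaks in nuclear arsenite. For PDCD10, BAG4 and GDAP2 neither contrast passed.

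Cytoplasmic sums with the largest rises were those of LUC7L, OXNAD1, DTL, CTNND1 and PACS1, and those with the largest falls POTEG, ANKRA2, PSPH, GLUD2 and ADAM10. The ADAM10 downstream sum had 14.9, 23.4 and 11.6 CPM in mock and 3.61, 6.25 and 3.48 in arsenite, and its 3'UTR sum 135 ± 23.4 and 23.3 ± 4.60 CPM. The PSPH 3'UTR sum had 37.6 ± 1.88 and 6.52 ± 2.79 CPM. Both regions of these genes were thus lower with arsenite in the cytoplasm. The nuclear count of called sums was 26, 33 and 27 without nuclear mock replicate 1, 2 or 3, and 10, 7 and 0 without nuclear arsenite replicate 1, 2 or 3. The cytoplasmic count was 91, 16 and 55 without cytoplasmic mock replicate 1, 2 or 3, and 27, 5 and 22 without cytoplasmic arsenite replicate 1, 2 or 3.

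The ratio of a gene's downstream sum to its own 3'UTR sum was tested where both had tags. All genes tested here are hosts, so the share called among all is that of the members. In the cytoplasm 307 of 1443 ratios were called (21.3%), 298 higher (20.7%) with arsenite and 9 lower (0.624%) (limma), with a median log2 difference of 0.55. In the nucleus 60 of 1341 were called (4.47%), 7 higher (0.522%) and 53 lower (3.95%), with a median of -0.20. Between fractions of mock cells 479 of 1069 were called (44.8%), 470 higher (44.0%) in the nucleus and 9 lower (0.842%), with a median of 1.03. In the input libraries 0 of 257 were called by limma (0.0%, 23 at unadjusted p under 0.05, edgeR not run on ratios), with a median of -0.18.

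The ratio moves with either of its parts. ABCA1, the cholesterol exporter, rose in ratio in the cytoplasm (limma adjusted p = 4.77e-07), with 3'UTR sums of 525, 707 and 618 CPM in mock and 147, 160 and 134 in arsenite. Its downstream peak, 5806 nt past the end, had 1.06, 0 and 1.05 CPM in mock and 5.05, 5.68 and 4.17 in arsenite. The mock values are under 3 tags per library, so the size of the ratio's rise depends on the pseudocount, with log2 differences between 2.52 and 4.32 over the alternatives. In STT3B both parts moved apart: the downstream sum had 13.8, 18.3 and 14.8 CPM in cytoplasmic mock and 42.6, 37.5 and 43.8 in arsenite, and the 3'UTR sum 256, 416 and 301 and then 91.7, 109 and 106 (ratio difference 2.90, SE 0.41, limma adjusted p = 3.95e-06). TXN, thioredoxin, rose in ratio, with 3'UTR sums of 50.8 ± 9.03 and 6.55 ± 5.37 CPM and downstream sums of 1.06 and 2.69 CPM, which are under 3 tags per library in mock. COL5A2 and HSP90AA1 rose in ratio too, also with mock downstream sums under 3 tags per library. In the nucleus the falls were led by NF2, BIN1, OXSR1, LRRC58 and SFT2D2. NF2, the tumour suppressor merlin, had 2.91, 8.18 and 4.83 CPM in nuclear mock and 59.3, 53.6 and 54.6 in nuclear arsenite in its 3'UTR, beside downstream sums of 0.486 and 2.16 CPM. The rises were led by TMED4, APP, GNA12, CHMP5 and MUC15, and between mock fractions by ARF4, SRP9, AMD1, UBR3 and ACTR2. In both groups compared, the mean downstream sums of TMED4, NF2, BIN1, LRRC58, ARF4, SRP9, UBR3 and ACTR2 were under 3 tags per library, and in mock those of APP, CHMP5 and MUC15 were. For these genes too the size and rank of the ratio depend on the pseudocount. The mean downstream sum of AMD1 was under 3 tags per library in the cytoplasm, and that of OXSR1 in nuclear arsenite. The falls in the cytoplasm were led by POTEG, OLFM3, RNF220, DMTF1 and COA5. The POTEG downstream sum went from 83.6 ± 31.0 to 13.9 ± 3.11 CPM, beside 3'UTR sums of 0.703 and 1.27 CPM. Between mock fractions the ratios lower in the nucleus were led by PCNT, GOLGA8A, ALG10, VRK2 and EPC2. The PCNT downstream sum was 3.59 ± 2.01 CPM in the nucleus and 35.6 ± 16.3 in the cytoplasm, beside 3'UTR sums of 0.808 and 0.340 CPM. POTEG, PCNT and GOLGA8A stayed called under all 12 alternatives, and each of the others was lost under between 1 and 5. Downstream sums were under 3 tags per library in both groups for RNF220 and DMTF1, and in the nucleus for GOLGA8A, VRK2 and EPC2. The nuclear count was 18 without nuclear mock replicate 1, 9 without nuclear mock replicate 2 and 0 without any other library. It was 0 with a pseudocount 4 times smaller and 224 with one 4 times larger. The cytoplasmic count was 195 without cytoplasmic arsenite replicate 2 and at least 205 without any other library.

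**Figure D5:**
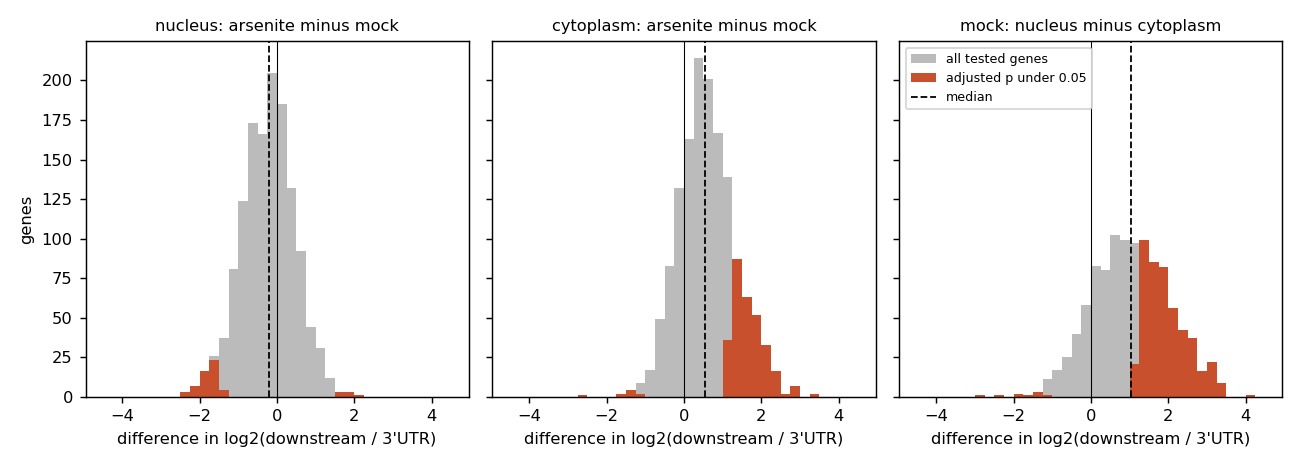
Number of genes (vertical axis) by difference in log2 of downstream over 3'UTR tags (horizontal axis) in 3 limma tests; grey are all genes tested, orange those called, the dashed line the median. The medians are -0.20 for arsenite in the nucleus, 0.55 for arsenite in the cytoplasm and 1.03 for nucleus against cytoplasm in mock cells.

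Among genes grouped by function, heat shock and stress-induced genes had downstream peaks at 8 of 30 genes, 19 peaks in all. Their summed level was 8.42 ± 4.07 CPM in nuclear mock and 22.9 ± 3.68 in nuclear arsenite, and 5.57 ± 0.472 and 18.1 ± 4.69 in the cytoplasm (n = 3). Of 5 downstream sums tested in the nucleus, GCLM, the modifier subunit of the first enzyme of glutathione synthesis, rose from 3.96 ± 0.376 to 15.5 ± 3.99 CPM (limma adjusted p = 0.00564), and of 4 in the cytoplasm GCLM and HSP90AA1 rose. Most of the list's summed rise in the nucleus was thus that of GCLM. Over all sums 4.09% were higher in the nucleus and 6.4% in the cytoplasm, and over downstream sums 40 of 1891 and 113 of 1942. Of the list's 3'UTR sums 7 of 21 were higher in the nucleus and none lower, and in the cytoplasm 1 of 23 was higher and 6 lower, with medians of 0.53 and -0.29. Over all 3'UTR sums 793 of 6001 were higher and 26 lower in the nucleus, and 61 of 6685 were higher and 1217 lower in the cytoplasm. For GCLM and HSP90AA1 the 3'UTR sums rose in the nucleus, from 12.6 to 25.9 and from 33.0 to 54.4 CPM, and fell in the cytoplasm, from 81.0 to 51.7 and from 217 to 66.1 CPM. The median log2 difference of the list's downstream sums was 0.32 in the nucleus and 0.72 in the cytoplasm, beside 0.19 over all downstream sums in both.

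The 25 factors of 3' end processing and termination had downstream peaks at 7 genes, 16 peaks, and none of the 4 nuclear or 3 cytoplasmic sums passed. Their summed level was 8.50 ± 2.32 and 8.16 ± 2.18 CPM in nuclear mock and arsenite, and 4.19 ± 2.14 and 9.68 ± 4.25 CPM in the cytoplasm (n = 3). Of the list's 3'UTR sums 1 of 16 was higher in the nucleus and 3 of 19 lower in the cytoplasm, beside 793 of 6001 and 1217 of 6685 over all 3'UTR sums. Hepatocyte genes had 12 downstream peaks at 6 of 20 genes, and 0 of their 4 downstream sums passed in either fraction. Of their 11 3'UTR sums 1 was higher and 2 lower in the nucleus, and 0 higher and 7 lower in the cytoplasm (median -1.15). Replication-dependent histone genes, whose mRNAs end in a stem-loop without poly(A), had 31 downstream peaks at 13 of 46 genes. Of 10 sums tested in the nucleus H2AC15 rose and H2AC14 and H3C2 fell, all with means at or under 4.60 CPM, and 0 of 7 passed in the cytoplasm. Over all sums 4.09% were higher and 1.44% lower in the nucleus. Of the histone 3'UTR sums 0 of 12 were higher and 2 lower in the nucleus, and 0 of 14 higher and 4 lower in the cytoplasm (median -0.73). Over all 3'UTR sums 26 of 6001 were lower in the nucleus and 61 of 6685 higher in the cytoplasm. No single peak of these 4 lists was called in any fraction test.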

How the data were processed

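The deposited table gives, per 20 nt peak and library, a signal that the authors made by dividing tag counts by a library total; whole tags were recovered for 100% of values (tolerance 0.02). Bowtie2, SAMtools, bedtools and HOMER and the build GRCh38.p14 are named per the submitters' processing notes, without roles or versions. Coordinates are printed as in the table. Values were tested as log2(signal + pseudocount of 2.28 CPM) with limma 3.58.1 (trend) in R 4.3.3, adjusted by Benjamini-Hochberg over all features; edgeR 4.0.16 on recovered tags was an alternative. Inputs were fitted with line by set, enriched libraries with set, as covariates. The scripts were tested on simulated data.

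The planned gene names were to come from the table; because few are there, RefSeq gene ends were used. Named were the 10 highest peaks, the 6 largest called differences each way per fraction test (groups not overlapping; this was not asked of the interaction), the 10 genes with most peaks, 5 genes each way per sum and ratio test, and called list members; other names were chosen after their values were seen. Members and lists were chosen with earlier results of these data known.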

Additional observations from a re-analysis of the deposited data

Results flagged for a closer look

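In the 4 G3BP input mock libraries the downstream share of peak tags had 1 library far from the others, at 2.07% against a median of 1.23%. It belongs to set JL0361 and holds 2711 tags in peaks. Without it the mock libraries lie between 1.18% and 1.28%, and the 5 arsenite libraries between 1.43% and 2.00%. About 1 in 20 groups is flagged this way when nothing sets a library apart.

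The arsenite response differed between nucleus and cytoplasm at 14 of 6532 downstream peaks by the limma interaction term (0.214%), against 0.352% of all peaks. Of 18 alternatives, none lost the call of the ANKRA2 peak or of the ONECUT1 peak at 3175 nt. POTEG and CRB3 were lost under 2, GLUD2 under 3 and the ONECUT1 peak at 945 nt under 5. Each other peak was lost under between 11 and 15. The difference of differences (log2, nuclear response minus cytoplasmic) was 3.04 for POTEG, 3.02 for CRB3, 3.01 for GLUD2, 2.26 for HUS1, 2.22 for PPIL4, 2.16 for ALYREF (the peak at 3996 nt), 2.14 for ANKRA2, 2.13 for PCNT, 2.05 for URB2, 2.04 and 1.89 for the ZNF460 peaks at 101 and 348 nt, 1.96 for MAPRE1 (3115 nt), and 1.84 and 1.79 for the ONECUT1 peaks at 945 and 3175 nt. The cytoplasmic mock mean was the highest of the 4 groups at all of these peaks except HUS1, ALYREF, URB2 and the ZNF460 peak at 348 nt. At HUS1 the cytoplasmic means were 18.5 and 19.1 CPM and the nuclear means 1.23 and 14.2 CPM. The CRB3 peak overlaps DENND1C on the other strand, and its part in the result was not tested.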

How the results depend on the processing

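The 95 results for single peaks or genes kept their direction under every alternative run. Those chosen for groups without overlap could not turn when 1 library was left out, so their kept direction is no check. Of 1235 values, 862 stayed past the threshold and 373 did not, 326 of them among the 606 with 1 library left out. Counts moved over 1.5 times as follows, and the cause was not tested. Against 10 nuclear peaks called, a pseudocount 4 times smaller gave 3, no filter 21, edgeR 18 and 1 fit of all 12 libraries 67. Against 16 cytoplasmic peaks, these gave 125 (smaller pseudocount), 33 (edgeR) and 119 (1 fit), scaling to peak tags 27 and the replicate block 28. Against 50 between mock fractions, the smaller pseudocount gave 33, no filter 76 and 1 fit 199. Against 8 between arsenite fractions, they gave 4, 20 and 20, the replicate block 5 and edgeR 20. edgeR gave 7 in inputs and 1 in G3BP enriched libraries against 0. One fit gave 104 nuclear sums against 47. Against 60 nuclear ratios, the smaller and larger pseudocounts gave 0 and 224, no filter 33, scaling to peak tags 158 and the replicate block 26. The smaller pseudocount gave 183 cytoplasmic ratios against 307 and 239 between mock fractions against 479, where no filter gave 774.

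With 1 library left out, peaks called ranged from 0 to 285 (nucleus), 0 to 379 (cytoplasm), 0 to 207 (mock fractions), 0 to 0 (arsenite fractions), 2 to 13 (interaction), 0 to 0 (inputs), 0 to 0 (G3BP enriched) and 0 to 3 (NLS against NES). Sums ranged from 0 to 33 (nucleus) and 5 to 91 (cytoplasm). Ratios ranged from 0 to 18 (nucleus), 195 to 392 (cytoplasm), 414 to 561 (mock fractions) and 0 to 0 (inputs).

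Whether the replicate numbers pair the samples could not be told. Deviations of same-numbered libraries correlated between -0.00324 and 0.0107 over single peaks. Most peaks hold few tags (median 10 over all libraries), and counting noise can hide a pairing in such values. The block changed no other count by over 1.5 times. Counting 1 near-identical enriched pair once left the count at 0 in both tests that hold such a pair. The G3BP enriched test holds a further such pair, mock replicates 3 and 4, whose libraries stayed separate.

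Chosen after seeing the data, the arsenite over mock ratio of summed CPM (1.48 nuclear, 1.17 cytoplasmic) was 1.41 and 1.27 without the 10 host genes with most tags. As a share of peak tags it was 1.42 in the nucleus. Without peaks over a gene on the other strand it was 1.13 in the cytoplasm. Most members hold too few tags for a test of a single peak in the APEX libraries.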
